A study of Mus musculus with 3 samples.

Results

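Broad open promoter regions of mouse BCR-ABL(p185) cells were described from ATAC-seq, in which a transposase cuts and tags DNA where chromatin is accessible. The cells were pre/pro-B-cell lines grown out of bone marrow of C57BL/6 mice after transduction with a retrovirus that carried BCR-ABL p185 and, from the same transcript, GFP. All 4 lines carried this oncogene, so no untransformed cells were compared. The wildtype lines (WT) came from Cdk6+/+ mice and the K43M lines from Cdk6KM/KM mice, in which both copies of Cdk6 encode a protein without kinase activity. Each list of peaks stood for 1 library of 1 line, with 2 lists per genotype, and the ages of the mice are not given in the sources used here. The sample labels state the genotype of WT replicate 2 and of K43M replicates 1 and 2. The remaining list has no sample record, but its name states WT. It was assumed to be the first wildtype line, which the design text of the series describes as submitted earlier, is named WT unnumbered here, and the counts are also given without it.

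The regions were selected on measured values. Overlapping peaks of the 4 lists were merged, and a region counted as broad and shared when it held a peak in every list and measured at least 2000 bp after merging. It also had to reach into the window from 2000 bp before to 200 bp after the start of a protein-coding transcript, on an autosome other than chromosomes 12, 13 and 18. This rule chose 46 of the 8459 shared promoter regions (0.544%), out of 50965 merged regions in the whole series. They belonged to 54 protein-coding genes. Of the 9718 shared regions away from promoters, 12 (0.123%) were as long. The merged length chose the regions and is given as a description.

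A promoter that is open in a cell population usually shows a stretch of accessible DNA near the transcription start, where nucleosomes are depleted and transcription factors and RNA polymerase II assemble. Many mammalian promoters lie in CpG islands, which are rich in G and C and in the CpG dinucleotide. Open stretches far longer than a nucleosome-free gap can hold several start sites, or further elements in the first intron or upstream of the gene. CDK6 is a cell cycle kinase that also acts at chromatin.

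Sequences at the strongest summit are shown for 6 of the 20 longest regions, to let the letters behind the longest open promoters be read. The summit is the point with the most overlapping cuts in a peak, and the strongest of the 4 lists was taken. Each run is 121 bases of GRCm38 (mm10) on the strand of the gene, 5′ to 3′, and only windows without annotated exon bases were taken. Of the 8 that qualified, the 5 with a motif are shown, with Nab2/Nemp1 for its difference between genotypes. Capitals mark a match to a searched motif on either strand. Coordinates are chr2:72980465-72980585 for Sp3 (minus strand), chr5:109558436-109558556 for Crlf2 (minus), chr2:148408270-148408390 for Thbd (minus), chr1:172500424-172500544 for Tagln2 (plus), chr17:72918177-72918297 for Lbh (plus) and chr10:127668202-127668322 for Nab2/Nemp1 (minus strand, that of Nab2).
Sp3: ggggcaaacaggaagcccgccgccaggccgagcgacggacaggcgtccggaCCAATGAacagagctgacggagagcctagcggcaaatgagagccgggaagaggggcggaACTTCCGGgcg
Crlf2: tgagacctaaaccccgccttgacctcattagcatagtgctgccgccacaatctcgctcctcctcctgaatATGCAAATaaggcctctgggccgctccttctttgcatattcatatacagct
Thbd: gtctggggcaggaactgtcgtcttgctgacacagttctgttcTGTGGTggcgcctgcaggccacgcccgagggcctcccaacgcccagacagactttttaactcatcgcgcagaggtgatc
Tagln2: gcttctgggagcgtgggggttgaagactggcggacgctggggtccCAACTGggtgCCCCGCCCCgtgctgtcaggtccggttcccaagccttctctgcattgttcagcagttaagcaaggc
Lbh: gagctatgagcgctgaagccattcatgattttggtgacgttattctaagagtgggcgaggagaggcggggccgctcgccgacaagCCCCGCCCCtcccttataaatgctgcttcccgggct
Nab2/Nemp1: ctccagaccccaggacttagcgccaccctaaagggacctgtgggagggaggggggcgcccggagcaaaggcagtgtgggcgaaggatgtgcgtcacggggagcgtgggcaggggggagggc

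The Sp3 window held an NFY site (CCAATGA) and, near its end, an ETS site read on the opposite strand. The Crlf2 window held the octamer ATGCAAAT, the element bound by POU-domain factors such as those of B cells. A RUNX site (TGTGGT) lay in the Thbd window. Tagln2 had an E-box beside an SP1 site, and Lbh an SP1 site upstream of a stretch that reads tataaa. No searched motif lay in the Nab2/Nemp1 window. These are matches of letters and do not show that a factor was bound.

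The depth of the libraries is known only through the peak values. The lists held between 33038 and 39038 peaks, and the genome-wide background recovered from them ran from 48.4 cut ends per 10 kb in K43M replicate 2 to 65.3 in WT unnumbered. Over the 46 regions the median covered length was 2021.5 bp in WT unnumbered, 1783 bp in WT replicate 2, 1889.5 bp in K43M replicate 1 and 1668.5 bp in K43M replicate 2. The labelled cell type was checked against promoter peaks at defining genes. Of 11 markers of B-cell precursors, such as Ebf1 and Blnk, 9 to 11 had a promoter peak in each list. T-cell markers had 7 to 9 of 20, without any peak at Cd3d, Cd3e, Cd3g, Cd4 or Cd8a. Myeloid markers had 4 to 6 of 20, without Cebpa, Csf1r, Mpo or Elane. Erythroid and megakaryocyte markers had 5 or 6 of the 19 annotated, without Klf1, Epor or Gp9. In all 4 lists a peak was found at 8, 7, 2 and 5 markers of these sets, in the same order. Zap70, Cd28 and Lat (T-cell), Csf2ra and Prtn3 (myeloid) and Tfrc, Nfe2 and Tal1 (erythroid and megakaryocyte) had shared promoter regions.

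The broadest open promoter was that of Ppp2r3d, a regulatory subunit of protein phosphatase PP2A. It measured 3276 bp at chr9:124422603-124425878. The next longest belonged to Wls, which carries Wnt proteins to the cell surface, with 2506 bp at chr3:159839478-159841983. All others lay between 2003 and 2487 bp, so that the 46 regions had a median of 2120.5 bp, beside 994 bp in the other shared promoter regions. The plot of region lengths shows that the threshold fell in the tail of a continuous distribution. Just inside it were Spo11 (2013 bp), Dock10 (2010 bp) and Atp6v1a/Naa50 (2003 bp). Just outside it were Agbl5 (1999 bp), Dazap2 (1991 bp) and Enoph1/Hnrnpdl (1990 bp).

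**Figure D1:**
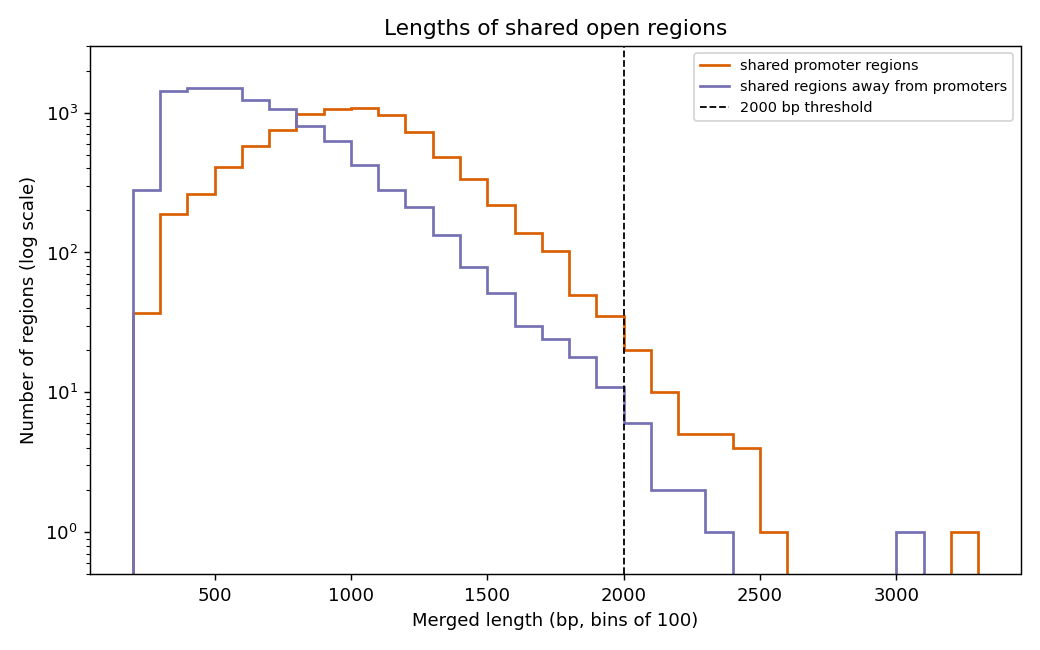
Number of shared regions (log axis) in bins of 100 bp of merged length, for regions at promoters and away from them, with a dashed line at 2000 bp. Promoter regions are longer in general (median 995 against 611 bp), 46 of them lie right of the line, and Ppp2r3d stands alone above 3200 bp.

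Transcription factors and their partners were among the 20 longest. Sp3, a zinc finger factor of GC-rich promoters, had 2468 bp at chr2:72978563-72981030. Stat6, which carries the signal of type 2 cytokines to the nucleus, had 2388 bp at chr10:127641811-127644198. Rbpj, the DNA-binding partner of Notch, had 2266 bp at chr5:53588955-53591220. Lbh, a transcription cofactor named for limb bud and heart, had 2209 bp at chr17:72917302-72919510. The corepressor Rcor3 (2351 bp, chr1:192136504-192138854) was also there, as was the pair Nab2/Nemp1 (2175 bp, chr10:127666505-127668679), where Nab2 encodes a corepressor of EGR factors and Nemp1 a nuclear envelope protein.

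Signalling and surface proteins made up another group. Crlf2, the receptor of the cytokine TSLP on lymphoid cells, had 2442 bp at chr5:109556740-109559181. Ppp3ca, the catalytic subunit of calcineurin, had 2261 bp at chr3:136669386-136671646. The phosphatase Cdc14a had 2487 bp at chr3:116422782-116425268 and the adaptor Ywhaz 2308 bp at chr15:36792364-36794671. Thbd, which encodes thrombomodulin, had 2324 bp at chr2:148407170-148409493.

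The rest of the 20 longest had varied roles. Alyref2, a relative of the mRNA export adaptor Alyref, had 2471 bp at chr1:171501683-171504153. The actin-binding protein gene Tagln2 had 2278 bp at chr1:172499752-172502029, and Cdc42ep3, an effector of the GTPase Cdc42, had 2180 bp at chr17:79354162-79356341. Tiparp, an ADP-ribosyltransferase, had 2179 bp at chr3:65527641-65529819. Limd2/Gm10840 had 2172 bp at chr11:106159134-106161305. The shorter members included Slc38a1 (2127 bp), a glutamine transporter, Nfe2l2 (2049 bp), the antioxidant response factor, Ldha (2045 bp), the lactate dehydrogenase of glycolysis, and Spn (2048 bp), the leukocyte surface sialoprotein.

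A merged region can be long because every list covers it or because lists differ in where they end. Bases covered in all 4 lists had a median of 1319.5 bp over the members, 61.4% of the merged length, beside 69.6% in the other shared promoter regions. This common part reached 2000 bp in 3 of 46 regions. Ppp2r3d had 2649 bp, Crlf2 2317 bp and Aida/Brox 2028 bp in common. Sp3 with 1943 bp and Rcor3 with 1874 bp came next. At the other end Spn had 175 bp in common and Nab2/Nemp1 344 bp.

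Crlf2 had similar covered lengths in the 4 lists. It was covered over 2407 bp in WT unnumbered, 2335 bp in WT replicate 2, 2442 bp in K43M replicate 1 and 2399 bp in K43M replicate 2, each time as 1 unbroken peak. The genotypes overlapped. Aida/Brox was likewise 1 peak in every list, of 2036, 2039, 2077 and 2079 bp in the same order. Both K43M lengths lay above both WT lengths there, but not after division by each list's median. These were the 2 regions with an unbroken peak of at least 2000 bp in each list. Ppp2r3d was covered over 2778, 2795, 3147 and 3120 bp, and its K43M replicate 1 peak was split in 2.

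**Figure D2:**
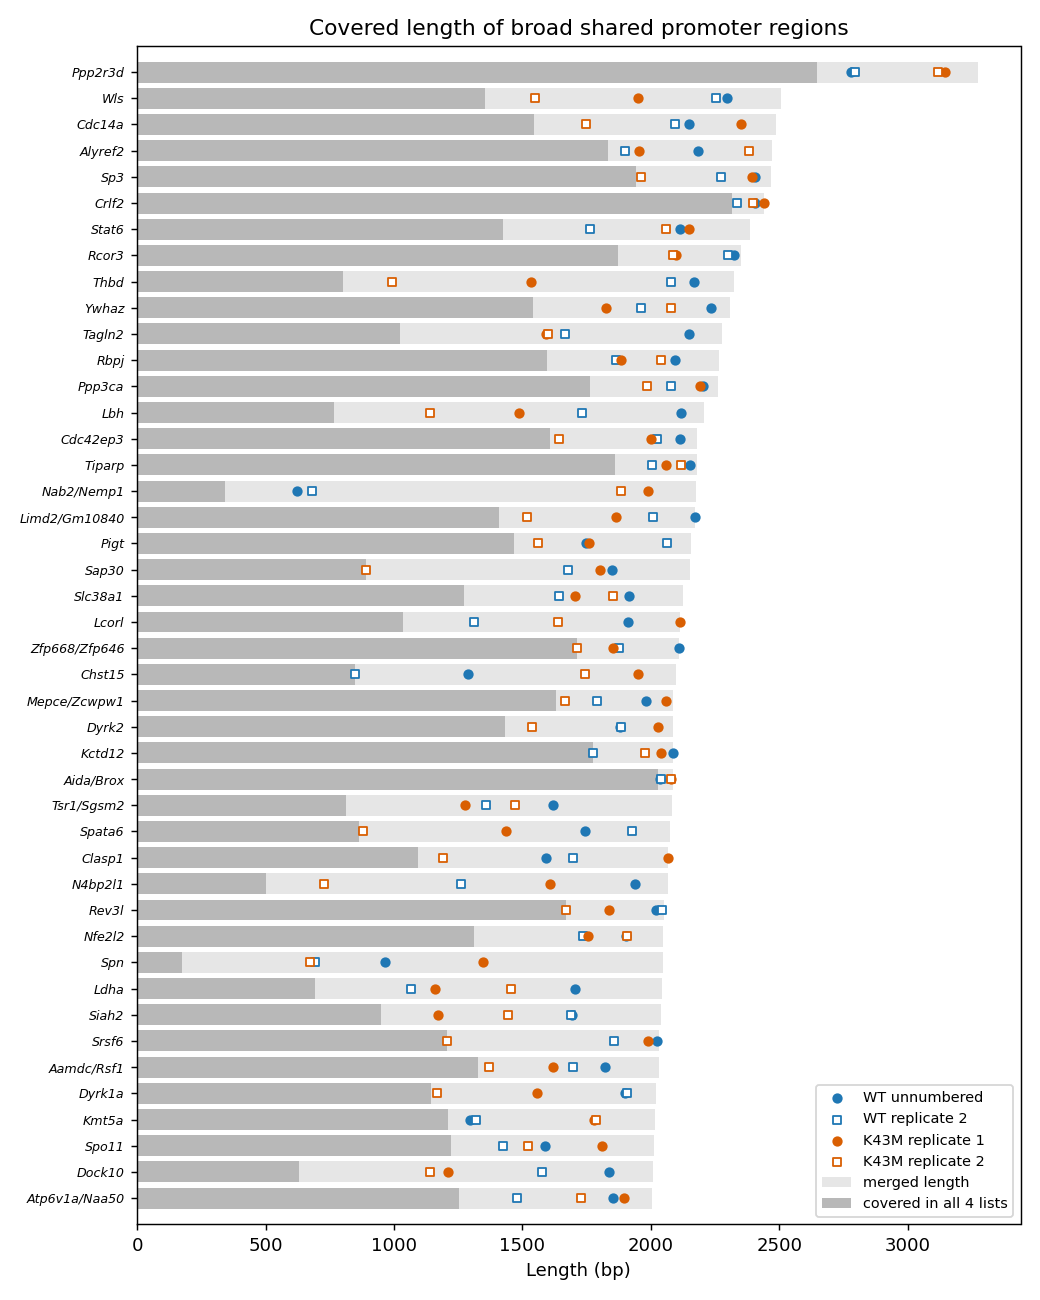
Length in bp of 44 of the 46 regions, ordered by merged length (light bar), with the bases covered in all 4 lists (dark bar) and the covered length in each list (points; blue for WT, orange for K43M). Crlf2 and Aida/Brox have their points together near the end of the bar, while Nab2/Nemp1 has its WT points at 621 and 680 bp and its K43M points at 1988 and 1886 bp.

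Most members were split into several peaks in at least 1 list. A single peak in every list was found in 5 of 46 regions (10.9%), among them Crlf2, Zfp668/Zfp646, Kctd12 and Aida/Brox, beside 83.1% of the other shared promoter regions. At least 2 peaks in every list occurred in 7 members (15.2% beside 0.368%). These were Wls, Cdc14a, Tagln2, Lbh, Slc38a1, Spata6 and Aamdc/Rsf1. From its first to its last peak, a list spanned at least 2000 bp in all 4 lists for 11 regions and in none for 6. Those 6 (Chst15, Tsr1/Sgsm2, Spn, Kmt5a, Spo11 and Dock10) became long only when the lists were joined.

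WT unnumbered weighed most in the selection. Without it 26 of the 46 regions remained at 2000 bp, and 38, 33 and 41 remained without WT replicate 2, K43M replicate 1 and K43M replicate 2. Among those lost without WT unnumbered were Wls, which shortened to 1859 bp, Thbd (1336 bp) and Ywhaz (1243 bp). Wls was also lost without WT replicate 2, where it measured 1372 bp. In 15 regions the length stayed at 2000 bp or more whichever list was left out, among them Ppp2r3d, Crlf2, Sp3, Rcor3, Ppp3ca, Tiparp and Aida/Brox. Their lengths ranged from 3120 to 3276 bp in Ppp2r3d, from 2417 to 2442 bp in Crlf2 and from 2407 to 2468 bp in Sp3. The deeper a library, the longer the stretch that passes the peak caller's threshold can be, and the part of depth in these differences was not tested.

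The open stretches reached to both sides of the start. Their median extent was 896.5 bp upstream and 1246 bp downstream of the reference start, which is the start inside the region closest to the strongest summit. The other shared promoter regions had 436 and 533 bp. More bases lay downstream than upstream in 30 of 46 (65.2%, beside 60.5% of the others). Wls reached 2311 bp downstream and 194 bp upstream, and 77.3% of its bases were intronic. Crlf2 reached 2196 bp downstream and 245 bp upstream, and Nab2/Nemp1 2063 and 111 bp. Ppp2r3d lay the other way, with 2295 bp upstream and 980 bp downstream, as did Alyref2 with 1795 and 675 bp and Pigt with 1956 and 200 bp.

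**Figure D3:**
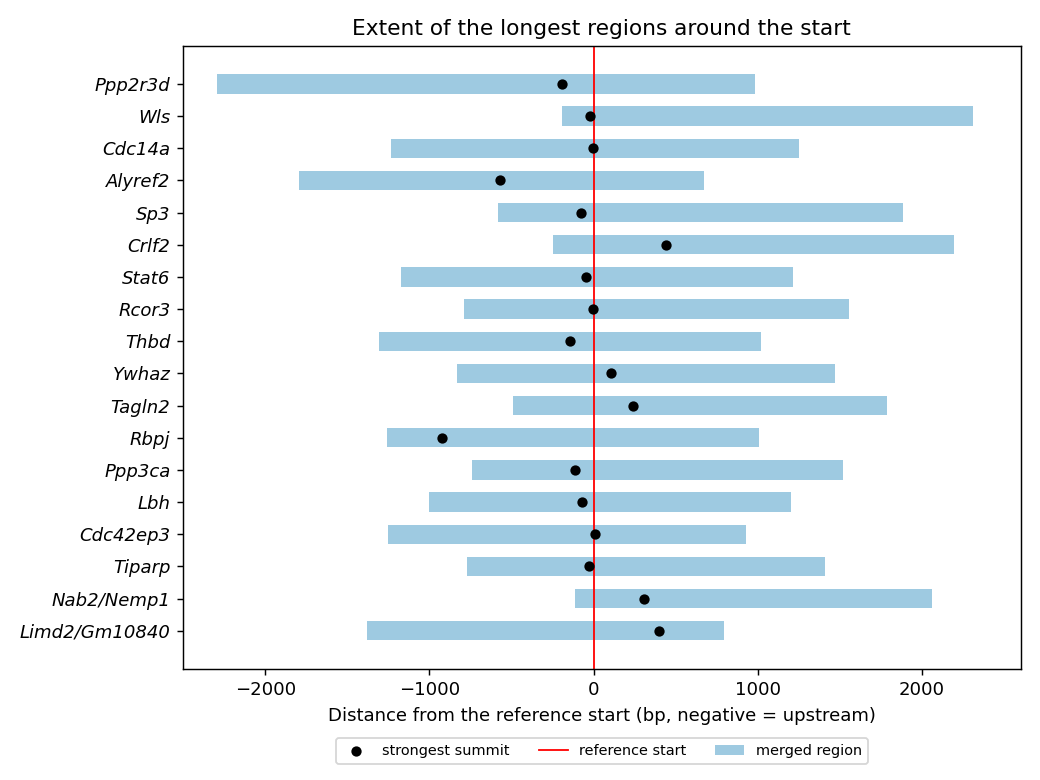
Extent of 18 of the 20 longest regions in bp from the reference start (red line, negative is upstream on the strand of the gene), with the strongest summit as a point. The summit lies at -923 bp for Rbpj, -571 bp for Alyref2, 306 bp for Nab2/Nemp1, 399 bp for Limd2/Gm10840 and 440 bp for Crlf2, and within 250 bp of the start for the others.

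The strongest summit lay at a median of -41.5 bp from the reference start, beside -36 bp in the other shared promoter regions. The reference start was chosen for its closeness to that summit, so short distances are partly fixed by this choice. The summit lay within 250 bp of the start in 34 members (73.9% beside 86.0%). In Spata6 it lay 1442 bp downstream and in Dock10 936 bp downstream. The Spo11 region held no start at all, and its summit lay at -2340 bp. The strongest summit was taken by pileup over the genome-wide background, whereas the spread between lists was measured on another summit. That was the summit of the peak with the highest fold enrichment in each list, and its position also changed more between lists. Its range over the 4 lists had a median of 202 bp, beside 51 bp, and it stayed within 100 bp in 22 regions (47.8% beside 73.9%). A summit has more room to move in a longer region, and the members were chosen by length, so these values are not matched for length. The summit of highest fold enrichment moved over 1761 bp in Thbd, 1745 bp in Spata6 and 1466 bp in Wls. It moved over 1451 bp in Sp3 and 1418 bp in Crlf2, whereas in Lbh the 4 summits lay within 19 bp. Among the other regions with a sequence shown, the range was 985 bp in Tagln2 and 470 bp in Nab2/Nemp1. The sequences shown for Thbd, Sp3, Crlf2, Tagln2 and Nab2/Nemp1 are those of the list with the strongest summit. Not every list had its summit of highest fold enrichment there.

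By annotation (GENCODE M21), 9.13% of the members' bases were coding, 19.1% were exonic but untranslated, 42.8% were intronic and 29.0% lay outside protein-coding transcripts. Spn had the highest coding share, 57.2%. Zfp668/Zfp646 lay to 88.2% in untranslated exons. Sp3 was 80.8% intronic. Several starts were common: 33 members held at least 2 (71.7% beside 58.1%). The most, 9 each, were in Ldha, Aamdc/Rsf1 and Atp6v1a/Naa50. In 8 members genes started on both strands (17.4% beside 10.4%), as in Aida/Brox and Mepce/Zcwpw1. The members are longer by the rule (median 2120.5 bp against 994 bp), so these shares of starts are not matched for length.

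Base composition was set beside that of other open promoters. Within 500 bp of the strongest summit, the median share of G and C was 63.9% in the members and 59.1% in the others, and the observed over expected CpG ratio was 0.764 and 0.746. CpG-rich, meaning over 50% G and C with a ratio over 0.6, were 33 of 46 (71.7%, 95% Wilson interval 57.5 to 82.7), beside 74.4% of the others. Rcor3 had 76.8% G and C and a ratio of 0.903. The Alyref2 summit was poor in G and C (38.7%), and the ratio was 0.105 in Spata6 and 0.178 in Spn.

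Both strands within 100 bp of the strongest summit were searched for motifs. SP1 (GGGGCGGGG) occurred in 11 members (23.9%, Wilson interval 13.9 to 37.9), beside 20.9% of all shared promoter regions. ETS (CCGGAAGT) occurred in 4 (8.70% beside 8.63%), namely Sp3, Pigt, Aida/Brox and Tsr1/Sgsm2. NFY (CCAATCA or CCAATGA) was found in 5 (10.9% beside 15.1%), E-boxes (CANCTG) in 14 (30.4% beside 29.9%), RUNX (TGTGGT) in 4 (8.70% beside 8.75%) and AP-1 (TGANTCA) in Dyrk2 alone (2.17% beside 2.65%). The NRF-1 letters GCATGCGC were in no member, which with 46 regions allows a share of up to 7.71% by the Wilson interval, beside 4.61%. CTCF sites were in none either (beside 0.697%). No motif is contained in another, but sites can overlap.

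The octamer ATGCAAAT was searched only after the Crlf2 sequence had been seen. It lay within 100 bp of the strongest summit in 4.35% of the members, Crlf2 among them, beside 0.958% of all shared promoter regions. With every summit of every list counted, it was found in 5 members (10.9% beside 1.44%), among them Ppp2r3d, Alyref2, Crlf2 and Kctd12. Members have more summits than other regions (a median of 6 peaks over the lists against 4), so shares at all summits are not matched for the sequence searched. At all summits the SP1 share was 43.5% (26.5% of all shared promoters) and the AP-1 share 17.4% (4.67%).

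The members had a higher median pileup and a lower median fold enrichment than other shared promoters. They were chosen by peak extent and held more peaks (a median of 6 over the lists against 4). These measures are therefore not independent of the rule, and the part of the rule in the differences was not tested. The deposited fold enrichment sets the reads at the summit against a local background of the same library. Over the 4 lists the mean summit pileup was 60.1 times the genome-wide background (median of members), beside 46.5 in the other shared promoter regions. The local background was 7.50 times the genome-wide one, beside 3.93. The fold enrichment was 6.76, beside 9.77. Ranked by the lowest of the 4 lists, it was highest at Sap30, a subunit of the Sin3 histone deacetylase complex, with 9.66, 9.43, 10.3 and 9.97 in WT unnumbered, WT replicate 2, K43M replicate 1 and K43M replicate 2. Ppp3ca (lowest list 8.80) and the kinase gene Dyrk1a (8.67) followed. By the same measure it was lowest at Wls (3.63), Spn (3.77) and N4bp2l1 (4.00). By the mean of the lists Ppp2r3d was lowest (4.38), before Wls (4.49) and N4bp2l1 (4.56).

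Ppp2r3d had the highest local background of all 8459 shared promoter regions, 25.4 times the genome-wide level, and fold enrichments of 4.26, 4.66, 4.25 and 4.36. Crlf2 ranked 6 with 16.2 times and fold enrichments of 4.39, 4.82, 5.02 and 4.81. These 2 regions also had the longest stretches common to all lists, among members that were chosen by length.

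**Figure D4:**
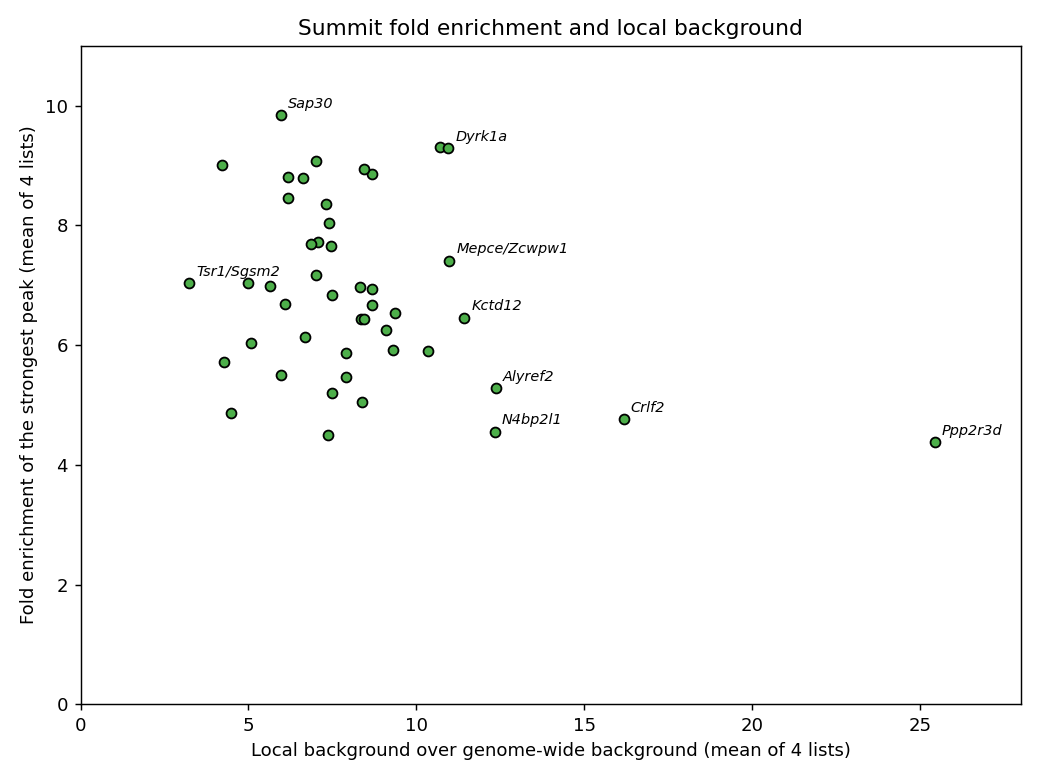
Fold enrichment of the strongest peak against the local background in multiples of the genome-wide background, both as means of 4 lists, for the 46 regions. Ppp2r3d (25.4) and Crlf2 (16.2) lie far to the right at fold enrichments below 5, and Sap30 is highest at 9.85.

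WT and K43M were set side by side within the 46 regions. The rule did not use the genotype labels, but it chose the regions by the peak extents of the same lists, so covered length by genotype is a description and supports nothing about the genotypes. With 2 lists against 2, an exact two-sided permutation test has 6 labelings and its smallest p is 2 in 6, so no single region can pass a threshold of 0.05. Regions were counted in which both lists of a genotype lay above both of the other, after covered lengths were divided by each list's median over all shared regions. Covered length was greater in both K43M lists in 7 of 46 members (15.2%). Over all 18177 shared regions this share was 19.9%. It was greater in both WT lists in 15 (32.6%), beside 20.3% of all shared regions. The median difference, K43M minus WT, was -0.05 on the log2 scale in the members and -0.01 in all shared promoter regions. Of the outer edges of the members, WT unnumbered set 30, WT replicate 2 set 15, K43M replicate 1 set 30 and K43M replicate 2 set 17. Without WT unnumbered, the rule left 26 regions, of which 9 were longer in both K43M lists than in WT replicate 2 and 7 shorter, beside 31.9% and 37.9% of all shared regions.

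Nab2/Nemp1 differed most. It was covered over 621 bp in WT unnumbered and 680 bp in WT replicate 2, against 1988 bp in K43M replicate 1 and 1886 bp in K43M replicate 2. The genotypes did not overlap, and the scaled mean was 3.01 times higher in K43M. Both outer edges came from K43M replicate 2, and the region measured 1219 bp without K43M replicate 1 and 1988 bp without K43M replicate 2, so the K43M lists chose it. From first to last peak the lists spanned 1857, 768, 1988 and 2175 bp, and WT unnumbered had 2 peaks with a gap between them. Its strongest peak in each list had overlapping fold enrichments of 6.45, 5.71, 6.74 and 5.66. The same peaks had pileups of 44 and 24 reads in WT and 69 and 63 reads in K43M, which did not overlap. Such a separation is common: by summit pileup over the genome-wide background, both K43M lists were higher in 40.3% of all shared regions. Chst15, which sulfates chondroitin chains, was covered over 1287 and 850 bp in WT and 1951 and 1745 bp in K43M (1.78 times). Its edges were also set by the K43M lists, and it measured 1197 and 1972 bp without K43M replicate 1 and K43M replicate 2. Here the fold enrichment was also higher in K43M, at 5.41 and 5.69 in WT against 6.44 and 6.59 in K43M. The peaks with these values had summits up to 1377 bp apart, so the lists were not compared at 1 site.

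Kmt5a, a histone H4 lysine methyltransferase, was longer in K43M, with 1296 and 1318 bp in WT against 1781 and 1788 bp in K43M (1.38 times). It measured 1116 and 1829 bp without K43M replicate 1 and K43M replicate 2, and 1969 bp without WT unnumbered. Its summit fold enrichment was lower there, at 8.72 and 7.56 in WT against 6.29 and 5.56 in K43M. The local background of these peaks was 3.80 and 3.90 times the genome-wide one in WT and 6.73 and 5.48 times in K43M. The pileup of these peaks was 51, 40, 52 and 34 reads in WT unnumbered, WT replicate 2, K43M replicate 1 and K43M replicate 2, and overlapped. Ppp2r3d came next among the K43M-longer regions, at 1.14 times.

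The largest ratio of covered length in WT over K43M was at Thbd. It was covered over 2167 and 2077 bp in the WT lists and over 1535 and 992 bp in the K43M lists, 1.70 times more in WT. Spata6, known from sperm formation, had 1743 and 1928 bp in WT and 1436 and 881 bp in K43M (1.61 times). Lbh had 2119 and 1733 bp against 1486 and 1139 bp (1.46 times), and Dock10, an exchange factor for small GTPases, 1839 and 1577 bp against 1211 and 1139 bp (1.43 times). From first to last peak, Thbd spanned 2167 and 2218 bp in WT and 2236 and 2324 bp in K43M, so it was no wider in WT. Spata6 spanned 2067 and 2073 bp in WT and 2064 and 2067 bp in K43M. Within these spans the lists differed in the bases between peaks. Lbh (2201 and 2178 bp against 1731 and 1316 bp) and Dock10 (1839 and 1926 bp against 1558 and 1556 bp) did span more in WT. Without WT unnumbered these regions measured 1336, 1186, 1670 and 1025 bp, so all were members through that list. In each of the 4 regions the K43M replicate 2 list, the shallowest, had the smallest covered length.

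Summit fold enrichment was higher in both K43M lists in 15 members (32.6%), beside 21% of all shared regions, and higher in both WT lists in 8 (17.4%), beside 21.4%. The median difference was 0.03 on the log2 scale in the members and 0.00 in all shared promoter regions. Without WT unnumbered the counts were 10 and 9 of 26, beside 32.8% and 37.4% of all shared regions. The splicing factor gene Srsf6 had the largest K43M excess, with 6.69 and 7.54 in WT against 9.96 and 7.99 in K43M (1.25 times). Rcor3 had 5.89 and 5.68 against 7.60 and 6.60 (1.22 times). Chst15 (1.17 times) and Pigt (1.14 times), a subunit of the enzyme that attaches GPI anchors, followed. The summits compared lay up to 1377 bp apart in Chst15 and 254 bp in Srsf6, but within 42 bp in Rcor3 and 38 bp in Pigt.

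Among members with the higher summit fold enrichment in WT, Kmt5a led with 1.38 times. Spn had 5.12 and 6.06 in WT against 3.77 and 4.51 in K43M (1.35 times). Wls had 5.09 and 4.92 against 4.34 and 3.63 (1.26 times) and was also covered over more bases in WT, 2295 and 2256 bp against 1952 and 1548 bp. Tsr1/Sgsm2, whose Tsr1 product acts in ribosome assembly, had 7.89 and 7.74 against 6.98 and 5.51 (1.26 times). The summits compared lay up to 1444 bp apart in Spn, 1466 bp in Wls and 898 bp in Tsr1/Sgsm2, so these are not differences at 1 site. In Kmt5a they lay within 25 bp.

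**Figure D5:**
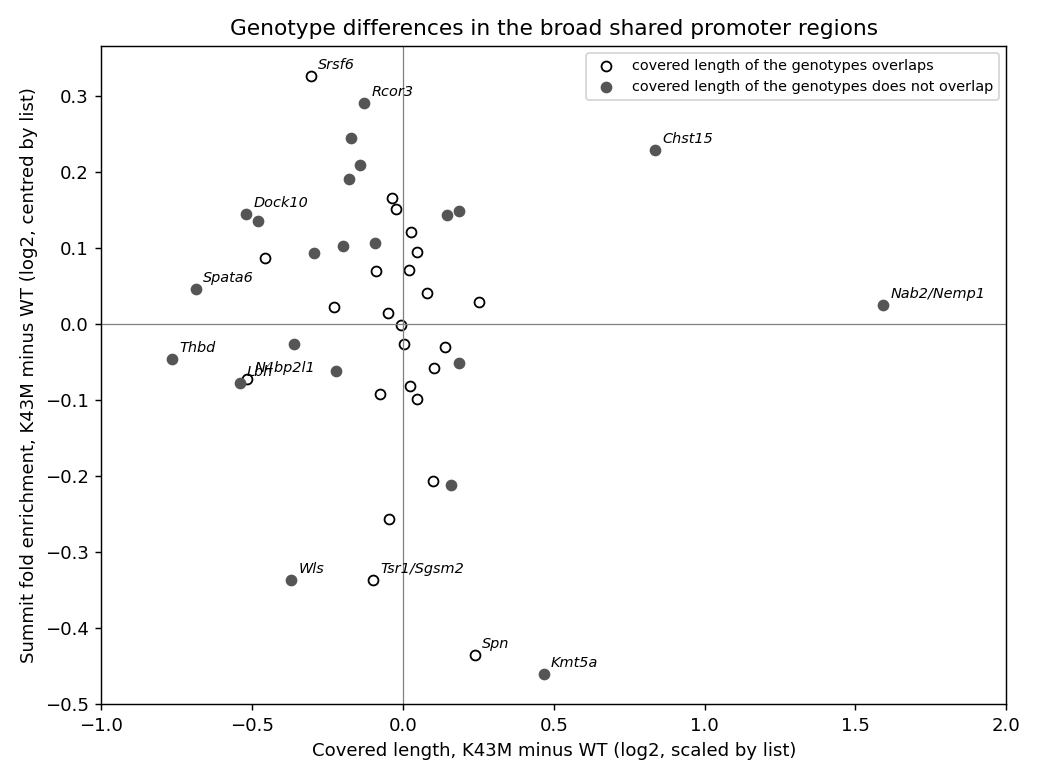
Difference in summit fold enrichment against difference in covered length, both K43M minus WT on the log2 scale after scaling by list, for the 46 regions. Filled points mark regions whose covered lengths do not overlap between genotypes, and Nab2/Nemp1 lies far right while Kmt5a lies right and low.

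Broad promoters were also counted in lists of genes of the pathways studied in these cells. Over all protein-coding genes with a shared promoter region, 54 of 8899 (0.607%) had a broad one. None of 66 electron transport chain subunits did, and their longest was Atp5j with 1930 bp. None of 31 cell cycle and CDK6 genes did, with Rb1 (1726 bp), Cdkn2c (1702 bp) and E2f1 (1474 bp) as the longest. Of 38 B-lineage transcription factors none was broad, though Bach2 (1865 bp) ranked 94 among all shared promoter regions, followed by Etv6 (1753 bp) and Cbfb (1621 bp). The 37 signalling genes of B-cell precursors had none, and Cd24a was their longest (1706 bp). These lists are too short for a count of 0 to be told apart from 0.607%.

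The 46 chromatin regulators with a shared promoter region had a median longest region of 1286 bp, beside 1033 bp over all genes, and Tet3 (1788 bp) and Ezh2 (1748 bp) were among their longest. Early response genes (0 of 41) had a median of 1136 bp, led by Bhlhe40 (1738 bp). Of 220 Zfp zinc finger genes, Zfp646 and Zfp668 shared a broad region. Cytosolic ribosomal protein genes (0 of 67) had a median of 914 bp, with Rpl7 the longest (1707 bp). The 8 B-cell precursor markers with a shared promoter region had a median of 704.5 bp, none was broad, and Blnk had 944 bp. T-cell (7), myeloid (2), erythroid and megakaryocyte (5) and non-blood developmental genes (2) with a shared promoter region had no broad one.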

How the data were processed

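The data were 4 lists of ATAC-seq peaks. Following the methods of the study, reads were trimmed with Trimmomatic 0.36 and mapped to mm10 with BWA 0.7.15, and blacklisted regions, reads with several positions and poor mappings were removed with bedtools and SAMtools 1.3.1. The authors called peaks with MACS2 2.1.0 in each library, shifting reads for the transposase cut, and no control is named. For each peak the authors deposited the fold enrichment ratio at the summit and its -log10 p-value and -log10 q-value. Summit pileup and local background were recovered from these under the Poisson model of MACS2, for 100% of peaks. Read totals are unknown.

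Overlapping peaks (1 bp) were merged. Starts came from GENCODE M21 and sequence from GRCm38. Named regions were the 20 longest, the 5 with most bases in all 4 lists, the 4 largest separated genotype ratios in each direction, the 3 on either side of the length threshold, the 3 highest and 3 lowest summits, the 3 with most starts, and the longest 3 of each gene list. Some named genes are not reported here. Members and lists were chosen with earlier results of these data known. No test over members was made, and intervals cover counting error only. Code was tested on simulated data and used Python 3.11.15, numpy 2.4.6, pandas 2.3.3, scipy 1.17.1 and matplotlib 3.10.9.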

Additional observations from a re-analysis of the deposited data

How the results depend on the processing

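The number of regions and genes depended most on the definition of length. A minimum of 1500 bp gave 591 regions with 700 genes, and a minimum of 2500 bp gave 2 regions with 2 genes. Requiring 2000 bp covered in all 4 lists gave 3 regions with 4 genes, and a span of 2000 bp in every list gave 11 regions with 12 genes. A stricter q-value, equal numbers of peaks per list, other merging, other windows and transcripts and the other chromosomes kept the number of regions between 38 and 55.

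Leaving out each list in turn gave 26 to 41 regions with 31 to 47 genes, of which 15 to 27 were longer downstream of the start, and 1 to 3 genes of the gene lists. It gave 5 to 11 regions with greater covered length in K43M and 7 to 23 in WT. The counts for K43M and WT were 9 and 7 of 26 without WT unnumbered and 5 and 20 of 38 without WT replicate 2. They were 11 and 18 of 33 without K43M replicate 1 and 10 and 23 of 41 without K43M replicate 2. The larger count was thus in K43M only without WT unnumbered. Summit fold enrichment was higher in K43M in 10 to 18 regions and in WT in 7 to 16. Over all shared regions the same settings gave 31.7 to 38.3% and 33.8 to 38.2% for covered length. For summit fold enrichment they gave 32.4 to 38.1% and 34.3 to 39.1%. With a lone list in an arm, such separation is more frequent by construction. By percentile of -log10 q, 15 members were higher in K43M and 5 in WT, beside 28.3% and 16.3% of all shared regions. By summit pileup over the genome-wide background it was 19 and 5, beside 40.3% and 11.1%. This last scale is not centred by list.

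The SP1 share was 13.0% within 50 bp and 43.5% at all summits. The AP-1 share was 0% within 50 bp and 17.4% at all summits. E-boxes were at 50% within 250 bp and 76.1% at all summits, and RUNX sites at 23.9% at all summits. A longer or shorter window holds more or fewer letters. No paired analysis was possible because the replicate numbers mark separate lines and only 1 wildtype list carries a number.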
